A study of Rattus norvegicus with 12 samples.

Results

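The genes described here are 32 genes of lipoate synthesis, the pyruvate dehydrogenase complex and its kinases, the tricarboxylic acid (TCA) cycle, and pyruvate carboxylase. They were chosen by name, and every probe that the platform annotation gives one of these symbols was taken. That gave 29 of the 22523 probes on the array, for 28 of the 32 genes. Lias, Pdha1, Suclg2 and Fh had no probe under their symbol and are named only. Detection on at least 3 arrays left 27 probes, for 27 genes, among the 13018 probes tested. The probe of Lipt1 and 1 of the 2 probes of Idh2 (ILMN_1530334) were detected on 0 of 12 arrays, so Idh2 stands below for its other probe, ILMN_1353248.

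RNA came from male fetuses of Wistar rats at gestational day 20, on single-colour Illumina RatRef-12 arrays. There were 3 arrays in each of 4 groups: pituitary after TCDD, pituitary control, hypothalamus after TCDD and hypothalamus control. TCDD (2,3,7,8-tetrachlorodibenzo-p-dioxin), a dioxin that activates the aryl hydrocarbon receptor (AhR), was given by mouth to the dams in corn oil at gestational day 15. Its dose reads 1 µg/kg in the series text and 1 mg/kg in the sample labels. The labels say only "control" of the other dams' treatment. They do not say whether arrays of a group stand for separate dams or litters or for pooled fetuses. The p-values here therefore set differences only against the spread of these samples, and that spread may be technical.

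Pyruvate enters the mitochondrial TCA cycle through the pyruvate dehydrogenase complex, which turns it into acetyl-CoA. The complex works with lipoate, a cofactor built on the protein itself by an octanoyl transferase (Lipt2) and a synthase (Lias), with a further transferase (Lipt1) that moves it between proteins. Kinases of the Pdk family switch the complex off by phosphorylation. The cycle then oxidises acetyl-CoA and supplies precursors, and pyruvate carboxylase refills it with oxaloacetate. In the brain and in endocrine cells these steps feed ATP production and the synthesis of lipids and amino acids.

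The study looked for TCDD-responsive genes that bear on the lower gonadotropin β-subunit of exposed fetuses, and AhR acts by binding DNA. The core of the AhR response element, GCGTG, was therefore searched on both strands (its reverse complement reads CACGC) of the RefSeq promoters of assembly GRCr8, 250 bases before to 50 bases after each gene's start. It was present in 17 of the 30 promoters of these genes that the table holds (56.7%), against 8540 of all 27457 promoters (31.1%). These promoters and the background were not matched for base composition or gene class, and the part of these in the excess was not tested. Idh3a and Pc had no entry. Shown here are the genes with the largest estimates in either direction between treatments in the pituitary (Dlat and Idh2), the kinase gene Pdk3, which had 4 matches, and Idh1, which had the largest difference between tissues. Capitals mark the motif. A pair of neighbouring matches on opposite strands abut in Pdk3 and share no base.
Dlat: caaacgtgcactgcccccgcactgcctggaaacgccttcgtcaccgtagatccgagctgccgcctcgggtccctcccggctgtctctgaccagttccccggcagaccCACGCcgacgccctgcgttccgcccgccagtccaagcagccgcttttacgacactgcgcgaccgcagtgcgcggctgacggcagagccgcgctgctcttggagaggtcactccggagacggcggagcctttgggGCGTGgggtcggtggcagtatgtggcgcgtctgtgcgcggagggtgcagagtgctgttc
Pdk3: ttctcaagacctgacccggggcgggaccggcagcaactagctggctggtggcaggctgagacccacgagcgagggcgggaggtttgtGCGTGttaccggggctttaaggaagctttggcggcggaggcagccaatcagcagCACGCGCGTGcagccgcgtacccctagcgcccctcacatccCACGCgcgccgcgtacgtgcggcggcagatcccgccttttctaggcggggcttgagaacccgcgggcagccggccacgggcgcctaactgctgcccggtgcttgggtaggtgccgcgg
Idh1: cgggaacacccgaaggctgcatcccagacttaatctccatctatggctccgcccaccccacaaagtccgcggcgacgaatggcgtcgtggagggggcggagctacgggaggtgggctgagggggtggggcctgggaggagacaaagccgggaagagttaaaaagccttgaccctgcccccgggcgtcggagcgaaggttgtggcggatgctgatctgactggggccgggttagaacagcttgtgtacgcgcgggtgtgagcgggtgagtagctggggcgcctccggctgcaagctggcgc
Idh2: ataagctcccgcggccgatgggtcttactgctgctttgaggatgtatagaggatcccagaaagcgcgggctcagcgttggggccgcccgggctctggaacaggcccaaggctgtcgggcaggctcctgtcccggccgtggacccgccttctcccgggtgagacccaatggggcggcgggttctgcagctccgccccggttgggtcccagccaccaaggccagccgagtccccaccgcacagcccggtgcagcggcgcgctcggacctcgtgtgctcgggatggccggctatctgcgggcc
The Dlat promoter (chr8:59900769-59901068, minus strand) held 2 matches and the Pdk3 promoter (chrX:62547322-62547621, minus strand) held 4. The Idh1 promoter (chr9:74049425-74049724, minus strand) and the Idh2 promoter (chr1:143467199-143467498, minus strand) held 0. A match is a run of letters and not a measured binding site.

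The arrays detected 47.4% to 54.5% of probes each, and arrays of a group correlated across probes at 0.984 to 0.994. Pituitary markers that were tested were higher in pituitary than in hypothalamus for 9 of 9 probes in both treatments, and hypothalamus markers were lower for 9 of 10. Of the listed markers, Fshb, Cga, Pou1f1, Pitx1, Gnrhr and Ghrhr were detected on no hypothalamus array, and Oxt, Crh and Nkx2-1 on no pituitary array. Those of them that were tested passed the detection filter only through the tissue where they are high, and so had to differ. Cyp1a1, a cytochrome P450 induced by AhR, lay at log2 levels of 11.07 to 11.49 on the TCDD pituitary arrays and 4.84 to 4.99 on the pituitary control arrays, and at 4.72 to 5.04 in the hypothalamus. It was detected on the 3 TCDD pituitary arrays only, so its other values are background. TCDD replicate 5 of the pituitary stood apart: 292 probes exceeded the average of the remaining pituitary arrays by over 1 log2 unit, against 19 to 39 probes on each of those arrays. Its summed level over 10 neuron marker probes was 58170 on the linear scale, against 17000 and 18050 in the other TCDD pituitaries, 18520 to 24780 in the control pituitaries and 99690 to 107600 in the hypothalamus. Several results that rest on this array are given without it as well. Others in which it was the extreme array are not, such as Dld, and Idh1 and Pdhx between tissues with TCDD. The part of the neuronal RNA in all of these was not tested.

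In the pituitary, none of the 27 genes passed the test for TCDD. Estimates ran from −0.31 log2 units (Idh2) to 0.32 (Dlat), with a median of 0.00, against −0.01 for all tested probes. The 95% intervals of all 27 lay between −0.69 and 0.52, and 3 of them reached beyond 0.5 in size. The count past an adjusted p of 0.05 (limma, Benjamini-Hochberg over all tested probes) was 0 of 27, where 0.668% of all tested probes passed. At an unadjusted p below 0.05 it was 1 of 27, against 11.5% of all probes. Bulk samples cannot tell fewer cells of a type apart from less RNA per cell, here or in the tissue comparisons.

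Dlat, the acetyltransferase core (E2) of the pyruvate dehydrogenase complex and itself a carrier of lipoate, was the gene nearest to the threshold. Its log2 levels were 8.63, 8.46 and 8.58 in the TCDD pituitaries, against 8.14, 8.24 and 8.33 in the control pituitaries. All 3 TCDD arrays lay above all 3 controls. The difference was 0.32 ± 0.09 (SE, n = 3 each, 95% interval 0.12 to 0.52), or 1.25-fold, with a limma adjusted p of 0.171. With the authors' deposited processed values in place of the raw intensities it was 0.18 (adjusted p = 0.0411), and over all alternatives the adjusted p ran from 0.0411 to 0.457.

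The other subunits of the complex had smaller estimates. Dld, the dihydrolipoamide dehydrogenase (E3) that reoxidises lipoate, had levels of 9.76, 9.73 and 9.87 in the TCDD pituitaries, against 9.57, 9.60 and 9.68 in the control pituitaries. These groups did not overlap either, with a difference of 0.17 ± 0.10 (SE, limma adjusted p = 0.554). Pdhx, which anchors E3 to the core, differed by 0.07 ± 0.10 (SE; −0.02 without TCDD replicate 5), and Pdhb, the β-subunit of the decarboxylating E1, by −0.09 ± 0.10 (SE).

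Lipt2 stood at 10.0003, 10.05 and 9.56 in the TCDD pituitaries, against 10.10, 10.06 and 10.11 in the control pituitaries. All TCDD arrays lay below all controls, most of the gap coming from replicate 5, the array with the high neuron markers. The difference of −0.22 ± 0.13 (SE, limma adjusted p = 0.550) was −0.07 without that array.

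Among the 4 kinases that inactivate the complex, none passed in the pituitary. Pdk3 had levels of 8.95, 8.94 and 8.81 in the TCDD pituitaries, against 9.11, 8.96 and 9.27 in the control pituitaries. The TCDD arrays lay below the controls, the nearest pair differing only in the third decimal. The estimate was −0.21 ± 0.11 (SE, limma adjusted p = 0.497), and −0.13 without control replicate 3. Pdk2 had levels of 9.28, 9.07 and 8.85 in the TCDD pituitaries, against 8.80, 8.92 and 8.93 in the control pituitaries, and these overlapped. Its estimate was 0.19 ± 0.12 (SE), 0.30 without TCDD replicate 5 and 0.08 without TCDD replicate 1. Pdk1 had 9.40, 9.57 and 9.51 in the TCDD pituitaries, against 9.43, 9.62 and 9.51 in the control pituitaries, a difference of −0.03 ± 0.12 (SE). Pdk4, the kinase induced by fasting in many tissues, had 6.62, 6.29 and 5.97 in the TCDD pituitaries, against 6.09, 6.31 and 6.59 in the control pituitaries, a difference of −0.04 ± 0.17 (SE), and 0.12 without TCDD replicate 5. The groups of both genes overlapped.

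Among the 17 genes listed for the TCA cycle, Idh2, the mitochondrial NADP-dependent isocitrate dehydrogenase, had the lowest estimate. Its levels were 10.51, 10.61 and 10.02 in the TCDD pituitaries, against 10.62, 10.84 and 10.61 in the control pituitaries. The TCDD value farthest from the controls was again replicate 5, and the groups touched at 10.61. The difference was −0.31 ± 0.17 (SE, limma adjusted p = 0.545), and −0.13 without replicate 5. The remaining 16 genes of that list, cytosolic forms among them, lay between −0.15 (Mdh2) and 0.11 (Aco1, the cytosolic aconitase that also serves as an iron sensor). Pyruvate carboxylase, Pc, differed by 0.07 ± 0.15 (SE), and by −0.02 without TCDD replicate 5.

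The TCDD and control pituitaries did not overlap for 8 of the 27 genes (29.6%), where 20% of all tested probes had such groups. In 4 the TCDD arrays were the higher (9.16% of all probes): Dlat, Dld, Idh3b and Sdhc. In the other 4 they were the lower (10.8% of all probes): Lipt2, Pdk3, Sucla2 and Mdh1. None of these 8 passed the test.

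Shifts in marker genes accompanied the pituitary comparison. The summed level over 8 skeletal muscle probes was 590.4 to 967.4 in the TCDD pituitaries and 1032 to 1634 in the control pituitaries, and 4 of the 8 probes fell. Myh2 was not detected on any array of either group. The same sum was higher in the hypothalamus, at 2288 to 2626 with TCDD and 2044 to 2475 in controls. It therefore does not stand for muscle alone. Of 9 pituitary markers 4 fell with TCDD, the gonadotropin β-subunits Fshb (−3.32) and Lhb (−1.81) and the receptors Gnrhr (−1.47) and Ghrhr (−0.99). Of 4 endothelium markers 1 rose, Vwf (1.08). Their part in the 27 values was not tested.

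**Figure D1:**
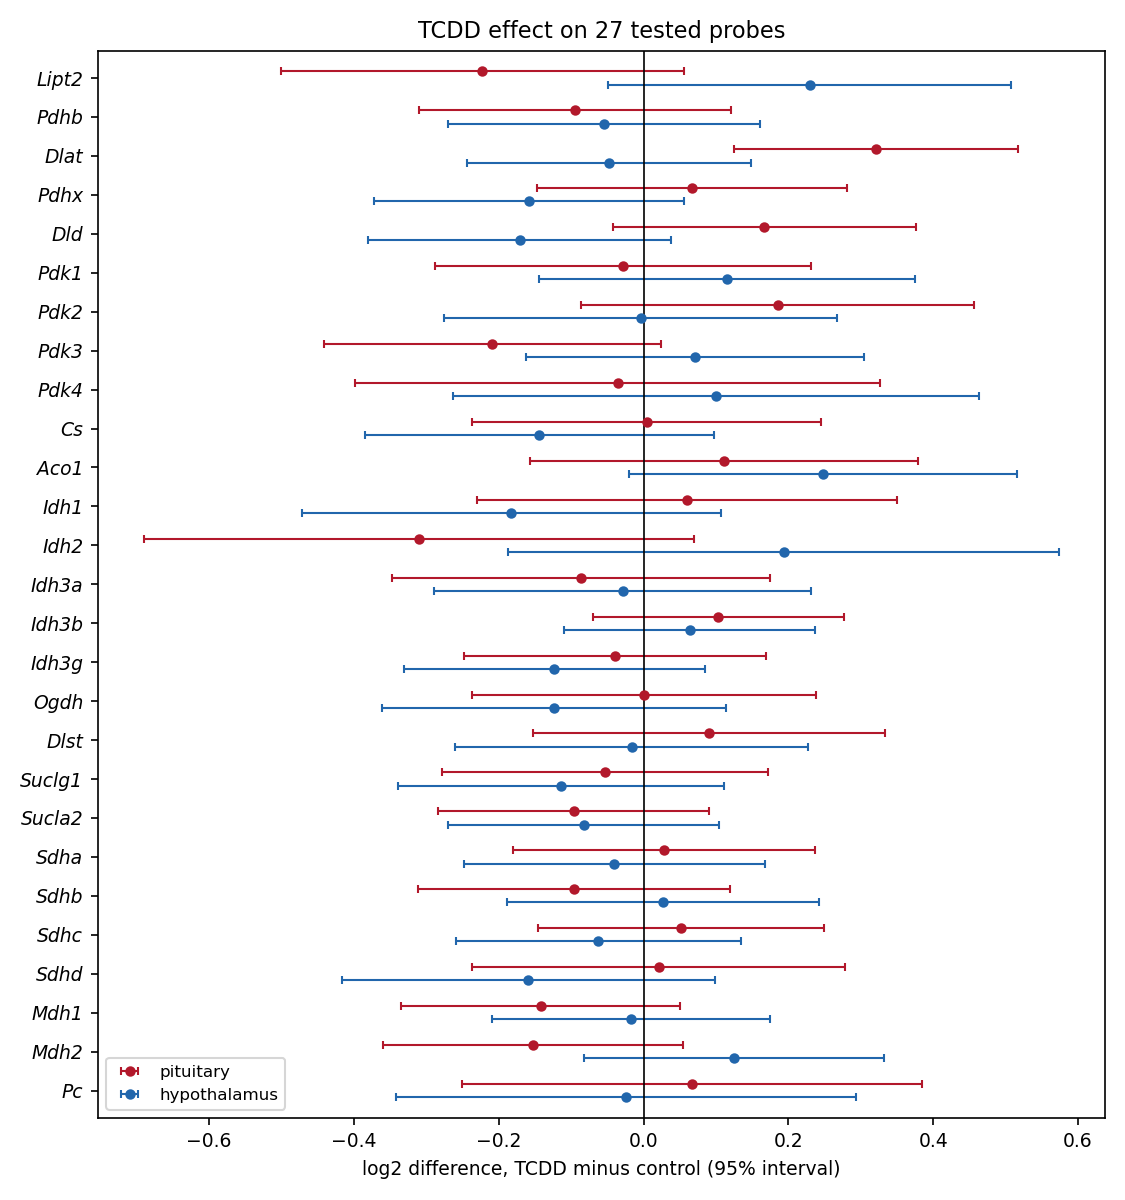
Log2 difference, TCDD minus control, for each of the 27 tested probes (points) with its 95% interval from the limma model (bars), in pituitary (red, upper) and hypothalamus (blue, lower). The Dlat interval in the pituitary, 0.12 to 0.52, does not cross 0, and all the others do.

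In the hypothalamus, too, none of the 27 passed for TCDD, where 0.023% of all tested probes did. None had an unadjusted limma p below 0.05, against 10.9% of all probes. Estimates ran from −0.18 (Idh1, the cytosolic NADP-dependent isocitrate dehydrogenase) to 0.25 (Aco1), with a median of −0.03, against 0.00 for all probes, and all intervals lay between −0.47 and 0.57.

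Aco1 had levels of 8.29, 8.17 and 8.35 in the TCDD hypothalami, against 7.93, 8.04 and 8.11 in the control hypothalami. All TCDD arrays lay above all controls, with a difference of 0.25 ± 0.12 (SE, limma adjusted p = 0.503). Lipt2 had levels of 9.90, 9.98 and 9.995 in the TCDD hypothalami, against 9.87, 9.56 and 9.77 in the control hypothalami. Here too the groups did not overlap, and the estimate was 0.23 ± 0.13 (SE, limma adjusted p = 0.555), or 0.14 without control replicate 3.

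Dld stood at 9.93, 9.84 and 9.70 in the TCDD hypothalami, against 10.02, 10.09 and 9.88 in the control hypothalami. These overlapped, and the difference was −0.17 ± 0.10 (SE, limma adjusted p = 0.559), or −0.11 without TCDD replicate 4. Pdhx stood at 11.18, 11.18 and 11.12 with TCDD, against 11.35, 11.26 and 11.34 in controls. All TCDD arrays lay below all controls, with a difference of −0.16 ± 0.10 (SE, limma adjusted p = 0.598). Cs, citrate synthase, was the other gene whose TCDD arrays lay below all controls, at −0.14 ± 0.11 (SE). In all, 4 of 27 genes had groups that did not overlap (14.8%), against 13.9% of all probes: 2 with TCDD higher and 2 with TCDD lower, where 6.97% of all probes fell on each side.

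The kinases in the hypothalamus lay near 0. Pdk1 had levels of 10.20, 10.50 and 10.06 with TCDD, against 10.21, 10.02 and 10.19 in controls, a difference of 0.12 ± 0.12 (SE). Pdk2 had 7.90, 8.22 and 8.18 with TCDD, against 8.07, 8.21 and 8.03 in controls, a difference of −0.00402 ± 0.12 (SE). Pdk3 had 8.08, 8.02 and 7.81 with TCDD, against 7.95, 7.92 and 7.83 in controls, a difference of 0.07 ± 0.11 (SE). All 3 overlapped between treatments, and Pdk4 was detected on 0 of the 6 hypothalamus arrays.

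Whether the TCDD effect differed between the tissues was tested directly, as the pituitary effect minus the hypothalamus effect. None of the 27 passed, where 0.2% of all probes did. At an unadjusted limma p below 0.05 there were 3 of 27, or 11.1%, against 11.8% of all probes. These were Dlat at 0.37 ± 0.13 (SE, 95% interval 0.09 to 0.65, adjusted p = 0.303), Lipt2 at −0.45 ± 0.18 (interval −0.85 to −0.06, adjusted p = 0.356) and Dld at 0.34 ± 0.14 (interval 0.04 to 0.63, adjusted p = 0.359). The next was Mdh2, the mitochondrial malate dehydrogenase. It stood at 12.48, 12.62 and 12.70 in the TCDD pituitaries, against 12.75, 12.84 and 12.67 in the control pituitaries, and at 13.18, 13.13 and 12.99 in the TCDD hypothalami, against 12.93, 12.95 and 13.03 in the control hypothalami. Treatments overlapped in both tissues, and the difference of effects was −0.28 ± 0.13 (SE, limma adjusted p = 0.447). Lipt2 was −0.30 without TCDD replicate 5 of the pituitary. In the kinases this difference was −0.14 for Pdk1, 0.19 for Pdk2 and −0.28 for Pdk3, none with an adjusted p below 0.493. None is given for Pdk4, which was not detected in the hypothalamus.

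**Figure D2:**
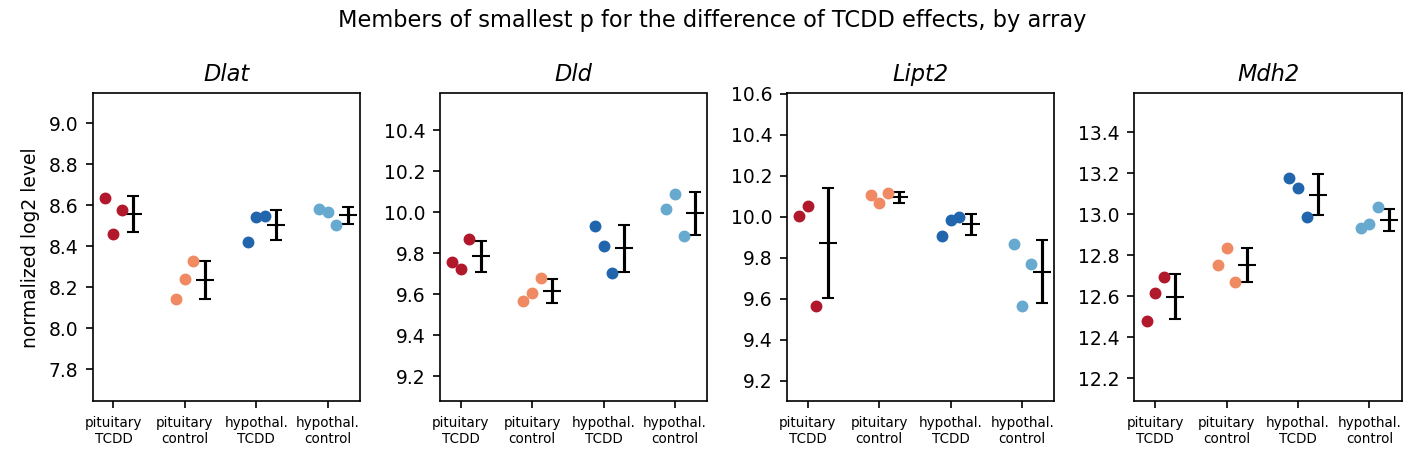
Normalized log2 levels on each array (points), with the group mean and SD (bars, n = 3), for the 4 genes of smallest p for the difference of TCDD effects. TCDD is left of control within each tissue, and the y axes differ between panels. The low TCDD pituitary point of Lipt2, 9.56, is replicate 5.

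The tissues differed in most of these genes. In control arrays, 21 of 27 passed for pituitary against hypothalamus (77.8%), where 69.5% of all tested probes did. Of these 7 were higher in pituitary, where 33.7% of all probes were, and 14 were lower, where 35.9% were. In TCDD arrays, which are separate samples, 19 of 27 passed (70.4%, against 70.2% of all probes), 7 higher (33.4% of all probes) and 12 lower (36.8%). The median difference was −0.25 in controls and −0.19 with TCDD, against −0.05 for all probes in both. Differences above 1 log2 unit were held by 5 genes in controls (18.5%, against 30.6% of all probes) and 4 with TCDD (14.8%, against 30.5%). The authors' deposited values, which share 1 distribution within each tissue, split the calls into 10 higher and 9 lower in both comparisons.

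Both comparisons passed for 17 of the 27 genes, where 61.6% of all tested probes passed in both. All 17 had the same direction in both, 6 higher and 11 lower, as had 8009 of the 8017 probes that passed in both. The 17 are 81% of the genes called in controls and 89.5% of those called with TCDD. Among all probes, the 8017 are out of 9053 called in controls and 9137 called with TCDD. The 2 comparisons share no array, although 1 estimate of the spread serves both. For 13 genes the call held under every alternative tried in both comparisons. How many of all tested probes held so was not counted, so this number has no background to be read against. These counts include Pdk4, which passed the detection filter only through its pituitary arrays and so had to differ. Neuron markers were lower in pituitary for 8 of 10 probes in controls and 7 of 10 with TCDD, and glia markers for 6 of 8 in both, with the other 2 glia probes higher in pituitary with TCDD. Blood markers were higher in pituitary for 3 of 5 probes in both, with medians of 1.25 in controls and 1.07 with TCDD. Endothelium markers were higher for 2 of 4 in both, with 1 lower with TCDD. Skeletal muscle markers were higher for 5 of 8 and lower for 1 in controls, and 2 and 1 with TCDD. Among these, Myl11, Ckm and Tnni2 were detected on no hypothalamus array and were tested only through their pituitary arrays. The glia marker Aqp4 was detected on no pituitary array. It was tested only through its hypothalamus arrays, and so could only be lower in pituitary. The neuron marker Elavl3 was detected on no control pituitary array. The part of all these markers in the differences below was not tested.

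Citrate synthase, which opens the cycle, and Idh1 had the lowest differences, pituitary minus hypothalamus. Idh1 had log2 levels of 10.22, 10.35 and 10.74 in the TCDD pituitaries and 10.38, 10.29 and 10.46 in the control pituitaries, against 12.10, 12.28 and 12.04 in the TCDD hypothalami and 12.30, 12.45 and 12.22 in the control hypothalami. Every pituitary array lay more than 1 log2 unit below every hypothalamus array. The difference was −1.95 ± 0.13 (SE) in controls, or 3.86-fold lower in pituitary (limma adjusted p = 5.70e-08), and −1.70 ± 0.13 with TCDD, or 3.26-fold lower (adjusted p = 1.96e-07).

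Cs had levels of 8.08, 8.24 and 8.28 in the TCDD pituitaries and 8.06, 8.40 and 8.13 in the control pituitaries, against 9.51, 9.45 and 9.37 in the TCDD hypothalami and 9.71, 9.52 and 9.53 in the control hypothalami. The tissues did not overlap, with differences of −1.39 ± 0.11 (SE, limma adjusted p = 2.18e-07) in controls and −1.24 ± 0.11 (adjusted p = 6.35e-07) with TCDD, so Cs was 2.62-fold and 2.37-fold lower in pituitary. With the deposited processed values these differences were −0.64 and −0.53.

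Idh2 ran the other way. It had levels of 10.51, 10.61 and 10.02 in the TCDD pituitaries and 10.62, 10.84 and 10.61 in the control pituitaries, against 9.22, 9.29 and 8.82 in the TCDD hypothalami and 8.98, 9.08 and 8.68 in the control hypothalami. The pituitary was the higher by 1.77 ± 0.17 (SE) in controls, or 3.42-fold (limma adjusted p = 1.48e-06), and by 1.27 ± 0.17 with TCDD, or 2.41-fold (adjusted p = 3.01e-05). Without TCDD replicate 5 the difference with TCDD was 1.46. The cytosolic and the mitochondrial NADP-dependent enzyme genes thus differed between the tissues in opposite directions.

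The NAD-dependent isocitrate dehydrogenase, the form that acts within the cycle, was lower in pituitary for 2 of its 3 subunit genes. Idh3a, the catalytic subunit, had levels of 5.88, 5.82 and 5.79 in the TCDD pituitaries and 5.87, 5.91 and 5.97 in the control pituitaries, against 6.66, 6.501 and 6.89 in the TCDD hypothalami and 6.89, 6.51 and 6.74 in the control hypothalami. The tissues did not overlap, with differences of −0.80 ± 0.12 (SE, limma adjusted p = 6.41e-05) in controls and −0.85 ± 0.12 (adjusted p = 3.54e-05) with TCDD, but −0.13 and −0.14 with the deposited processed values. The Idh3a probe was detected on all 12 arrays but was dim. Its raw intensities were 118.6 to 139.9 in pituitary and 129.5 to 181.2 in hypothalamus, where array medians were 92.5 to 120.8. Idh3b, a regulatory subunit, had levels of 10.98, 10.92 and 10.94 in the TCDD pituitaries and 10.79, 10.86 and 10.88 in the control pituitaries, against 11.40, 11.43 and 11.45 in the TCDD hypothalami and 11.43, 11.34 and 11.32 in the control hypothalami. It was lower in pituitary, at −0.52 ± 0.08 in controls and −0.48 ± 0.08 with TCDD (SE, limma adjusted p = 7.21e-05 and 0.000140), and at −0.34 and −0.32 with the deposited processed values. Idh3g, the other regulatory subunit, was at −0.11 ± 0.10 and −0.03 ± 0.10 and did not pass in either.

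Ogdh, the E1 of the 2-oxoglutarate dehydrogenase complex, was higher in pituitary, and its lipoate-bearing partner Dlst (E2) lower. Ogdh had levels of 11.92, 11.90 and 11.97 in the TCDD pituitaries and 11.88, 11.996 and 11.90 in the control pituitaries, against 10.96, 10.97 and 10.77 in the TCDD hypothalami and 10.80, 11.19 and 11.07 in the control hypothalami. These did not overlap, and Ogdh was the higher in pituitary by 0.91 ± 0.11 (SE, limma adjusted p = 9.08e-06) in controls and 1.03 ± 0.11 (adjusted p = 2.96e-06) with TCDD. Dlst was at −0.45 ± 0.11 (adjusted p = 0.00308) in controls and −0.34 ± 0.11 (adjusted p = 0.0152) with TCDD. The Dlst call was lost under 1 of 20 alternatives in controls and 4 of 19 with TCDD, and with the deposited processed values its estimates were −0.03 in controls and 0.04 with TCDD.

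Later steps of the cycle went in both directions. Succinate dehydrogenase, which also serves as complex II of the respiratory chain, was split. Sdhc, a membrane anchor subunit, was lower in pituitary in both comparisons, at −0.45 ± 0.09 in controls and −0.33 ± 0.09 with TCDD (SE, limma adjusted p = 0.000738 and 0.00559). Sdha, the flavoprotein, was higher at 0.24 ± 0.10 and 0.31 ± 0.10 (adjusted p = 0.0406 and 0.0121), and its control call was lost under 11 of 20 alternatives. With the deposited processed values Sdha was at 0.42 and 0.48. Sdhd, the other anchor, was at 0.28 ± 0.12 in controls (adjusted p = 0.0502) and passed with TCDD at 0.46 ± 0.12 (adjusted p = 0.00380). Sdhb, the iron-sulphur subunit, passed in neither, at −0.07 and −0.19.

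The malate dehydrogenase genes were both lower. Mdh1, the cytosolic form that works in the malate-aspartate shuttle, was at −0.40 ± 0.09 in controls and −0.52 ± 0.09 with TCDD (SE, limma adjusted p = 0.00137 and 0.000166). Mdh2 was at −0.22 ± 0.10 (adjusted p = 0.0549) in controls and passed with TCDD at −0.50 ± 0.10 (adjusted p = 0.000454), and with median scaling it passed in controls as well, at −0.45. The succinyl-CoA ligase genes differed little: Sucla2 was at 0.01 and −0.01, and Suclg1 at −0.25 (adjusted p = 0.0462) in controls and −0.19 (adjusted p = 0.118) with TCDD, the control call being lost under 11 of 20 alternatives. Aco1 was lower at −0.42 ± 0.12 and −0.56 ± 0.12 (adjusted p = 0.00818 and 0.00130), and Pc was lower at −0.56 ± 0.15 and −0.47 ± 0.15 (adjusted p = 0.00419 and 0.0120). Both of these calls were lost in each comparison with the deposited processed values and with median scaling.

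Of the pyruvate dehydrogenase kinases, Pdk2 and Pdk3 were higher in pituitary and Pdk1 lower. Pdk4, which had to differ as said above, was higher. The calls of Pdk1, Pdk2 and Pdk3 held under every alternative. Pdk3, at the levels given above, was higher in pituitary by 1.21 ± 0.11 (SE) in controls, or 2.31-fold (limma adjusted p = 5.61e-07), and by 0.93 ± 0.11 with TCDD, or 1.91-fold (adjusted p = 6.20e-06). Pdk2 was higher by 0.78 ± 0.12 in controls (adjusted p = 0.000110) and 0.97 ± 0.12 with TCDD (adjusted p = 1.70e-05). For both genes every pituitary array lay above every hypothalamus array.

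Pdk4 had levels of 6.62, 6.29 and 5.97 in the TCDD pituitaries and 6.09, 6.31 and 6.59 in the control pituitaries, and was not detected on any hypothalamus array, where its probe read 5.10 to 5.47. It was at least 1.69-fold higher in pituitary in controls and at least 1.57-fold higher with TCDD. The bound sets the pituitary mean against the lowest signal of a detected probe on each hypothalamus array, or the probe's own signal where that was the higher, on the background-corrected and quantile-normalized scale. With the deposited processed values the pituitary differed by only 0.19 log2 units in controls and 0.17 with TCDD. Pdk1 was the lower in pituitary, at −0.62 ± 0.12 in controls (adjusted p = 0.000484) and −0.76 ± 0.12 with TCDD (adjusted p = 8.85e-05), and its tissues did not overlap. With the deposited processed values it was at −0.23 and −0.35.

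In the complex itself, Pdhx was lower in pituitary. Its levels were 10.40, 10.50 and 10.70 in the TCDD pituitaries and 10.47, 10.36 and 10.56 in the control pituitaries, against 11.18, 11.18 and 11.12 in the TCDD hypothalami and 11.35, 11.26 and 11.34 in the control hypothalami. The tissues did not overlap, with differences of −0.85 ± 0.10 (SE, limma adjusted p = 6.33e-06) in controls and −0.63 ± 0.10 (adjusted p = 9.43e-05) with TCDD, where the deposited processed values gave −0.38. Pdhb passed in neither, at 0.14 and 0.10. Dlat and Dld passed as lower in controls only, at −0.31 ± 0.09 (adjusted p = 0.00770) and −0.38 ± 0.10 (adjusted p = 0.00366). With TCDD they were at 0.05 ± 0.09 and −0.04 ± 0.10. Lipt2 passed as higher in controls, at 0.36 ± 0.13 (adjusted p = 0.0231), and was at −0.09 ± 0.13 with TCDD, or 0.06 without pituitary TCDD replicate 5. Of these 3 the change between treatments is the difference of TCDD effects given above, which did not pass. The Dlat control call was lost with the deposited processed values, where its estimate was 0.05, with median scaling and with the replicate number as a block. The Dld control call was lost with the deposited processed values, at −0.03 (limma adjusted p = 0.645). The Lipt2 call rested on single arrays: the adjusted p was 0.0551 when pituitary control replicate 1 was left out, 0.0556 when pituitary control replicate 3 was, and 0.0953 when hypothalamus control replicate 3 was.

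**Figure D3:**
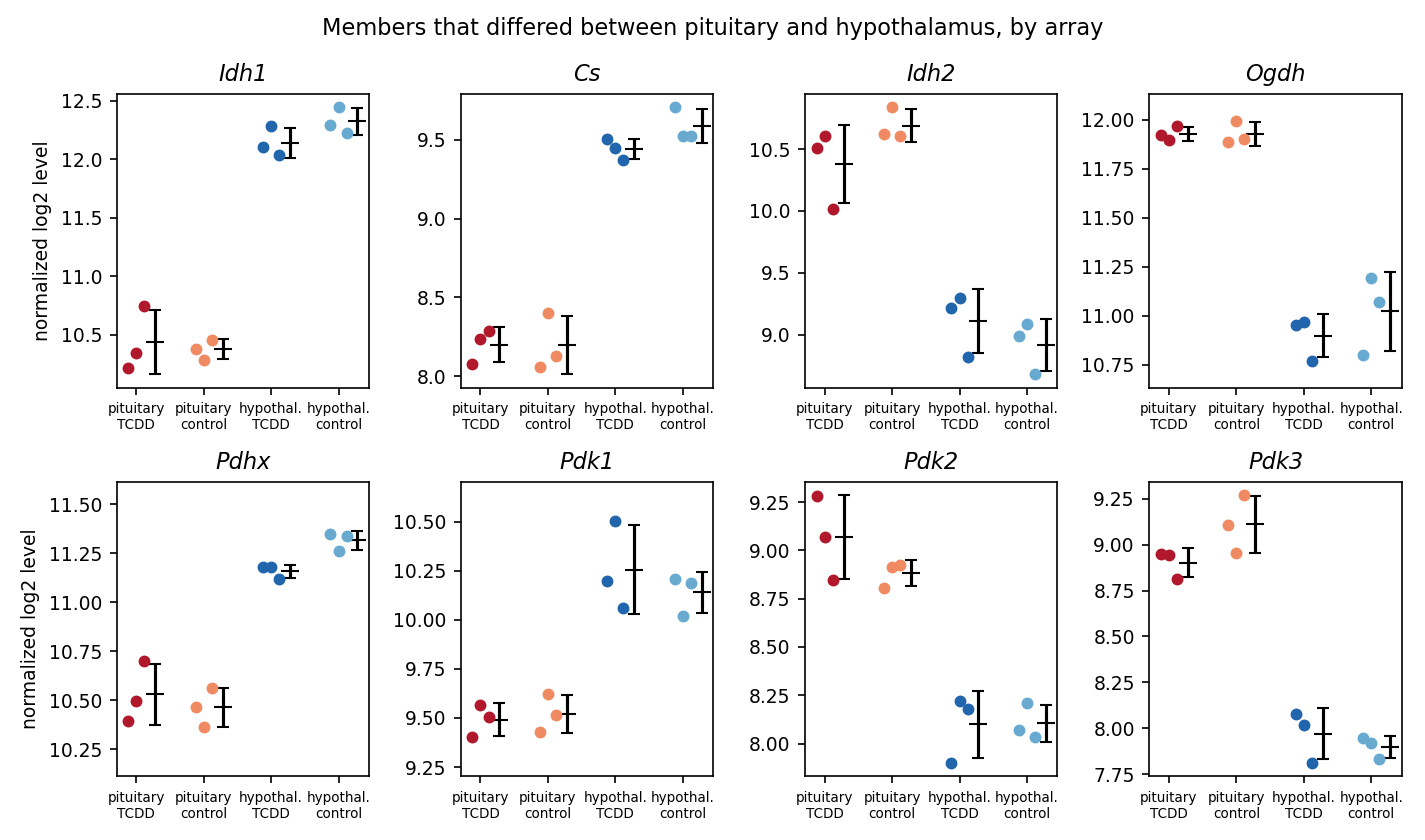
Normalized log2 levels on each array (points), with the group mean and SD (bars, n = 3), for 8 genes that differed between the tissues in both treatments. The TCDD group stands left of its control, and the y axes differ between panels. Idh1, Cs, Pdhx and Pdk1 were lower on every pituitary array, and Idh2, Ogdh, Pdk2 and Pdk3 higher.

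**Figure D4:**
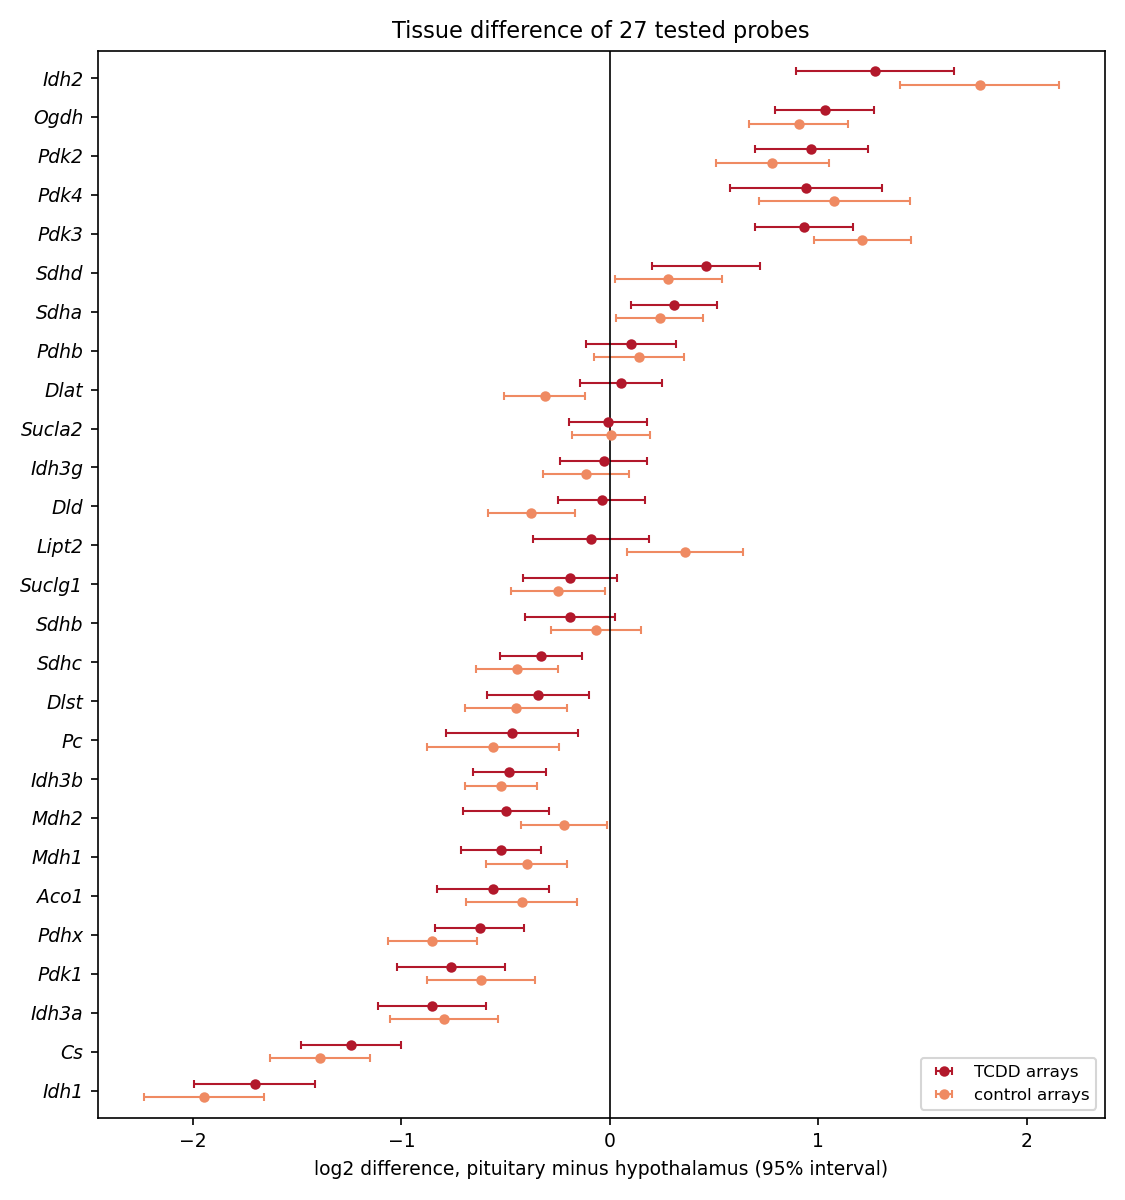
Log2 difference, pituitary minus hypothalamus, for each of the 27 tested probes (points) with its 95% interval (bars), in TCDD arrays (dark red, upper) and control arrays (orange, lower), ordered by the TCDD value. Values run from −1.95 (Idh1) to 1.77 (Idh2), both in controls, and 24 of 27 genes have the same sign in both.

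Neighbouring genes of the same pathways were read from further lists. Of 22 tested probes for other enzymes of lipoate use, mitochondrial fatty acid synthesis and iron-sulphur cluster assembly, of 8 for pyruvate dehydrogenase phosphatases and pyruvate transport, and of 19 for other steps around the cycle, limma called 0 for TCDD in either tissue or for the difference of effects. At an unadjusted p below 0.05 these lists had 5, 1 and 1 in the pituitary and 3, 2 and 1 in the hypothalamus, and 6, 0 and 0 for the difference, against 11.5%, 10.9% and 11.8% of all probes. The median of the first list was −0.11 in the pituitary and 0.14 in the hypothalamus. Singled out after the values were seen, as the smallest pituitary p of each list, were Mecr, a reductase of mitochondrial fatty acid synthesis that provides the octanoyl chain for lipoate (−0.37 ± 0.11, SE, adjusted p = 0.203), Ldha, the lactate dehydrogenase A subunit (0.39 ± 0.11, adjusted p = 0.161), and Gls2, a glutaminase (−0.29 ± 0.12, adjusted p = 0.366).

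Between tissues these lists moved in both directions, where 33.7% of all probes were higher in pituitary and 35.9% lower in controls, and 33.4% and 36.8% with TCDD. Mpc1 and Mpc2, which form the mitochondrial pyruvate carrier, were lower in pituitary at −0.86 ± 0.11 and −0.70 ± 0.14 in controls and −0.998 ± 0.11 and −0.84 ± 0.14 with TCDD. Pdp1, the phosphatase that reactivates pyruvate dehydrogenase, was lower at −1.34 ± 0.14 in controls and −1.13 ± 0.14 with TCDD (SE, limma adjusted p = 3.11e-06 and 1.46e-05). In all, 2 of the 8 probes of that list were higher and 3 lower in controls, and 3 and 3 with TCDD. Its differences ran from −1.34 to 1.53 in controls and from −1.13 to 1.005 with TCDD, so the genes named here show only its lower side. Slc25a1, the mitochondrial citrate carrier, was lower at −2.41 ± 0.13 in controls and −2.75 ± 0.13 with TCDD (adjusted p = 6.66e-09 and 2.42e-09). Gls2 was higher at 1.86 ± 0.12 in controls and 1.502 ± 0.12 with TCDD, and Pck2, the mitochondrial phosphoenolpyruvate carboxykinase, at 1.55 ± 0.16 and 1.33 ± 0.16. That list had 4 probes higher and 6 lower of 19 in both treatments. The lipoate list had 9 higher and 4 lower of 22 in controls, and 4 and 7 with TCDD. Its differences ran from −0.70 to 0.93 in controls and from −1.18 to 0.95 with TCDD. Nfu1, an iron-sulphur cluster carrier needed for lipoate synthesis, was lower at −0.70 ± 0.10 and −0.75 ± 0.10. It had the lowest difference of its list in controls, so it shows only the lower side of that list.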

How the data were processed

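Each of the 12 samples was measured on 1 array. The authors deposited a table of non-normalized bead intensities, 1 per probe and array, each followed by its detection p-value (file headers). They also deposited processed values on a log2-like scale, used only as an alternative: the sources used here give neither their transform nor the scanner software.

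Intensities of all probes went through neqc of limma 3.58.1 in R 4.3.3 (normexp background from the detection p-values, offset 16, quantile normalization over the 12 arrays, log2). The offset pulls fold changes of dim probes towards 0, and quantile normalization gives both tissues 1 distribution. Tested were the 13018 probes whose detection p was below 0.05 on 3 arrays or more. A limma model with 4 group means was fitted to the 12 arrays (8 residual and 4.19 prior degrees of freedom). Each of 5 comparisons was tested two-sided, with adjustment by Benjamini-Hochberg over its 13018 probes and a threshold of 0.05. The fit was tested on simulated data.

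Genes were matched by symbol, older symbol or Entrez identifier to the platform annotation, which names 13793 of the 22523 probes, and promoters from RefSeq (GRCr8). The members, the lists and the alternatives were chosen with earlier results of these data known. Every member with a probe is named, and values are given on every array for the genes of smallest p in each comparison, for Lipt2 and for the kinases. Of other lists, up to 3 passing genes are named, and these are not in every list those of smallest p. Alternatives were median scaling, no background correction, the deposited processed values, no or a stricter filter, an intensity trend, array weights, each tissue alone, the replicate number as a block, and leaving out each array. Same-numbered arrays did not deviate together (correlations of −0.07 to 0.11 over 7 pairs), and the numbers were not taken to pair samples. Some of these pairs joined treatments within a tissue, and the pairs across tissues were at −0.02 to 0.02. So few arrays cannot exclude a pairing.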

Additional observations from a re-analysis of the deposited data

How the results depend on the processing

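With 3 arrays a group, the number of arrays limits the precision. Of the counts of called genes under the alternatives, 100 stayed within 1.5 times the reported count and 1 did not. That was the pituitary TCDD comparison with the deposited processed values, which called 1 gene, Dlat, against 0; the cause was not tested. Leaving out each array in turn gave 0 calls in the 3 TCDD comparisons, 18 to 22 in the control tissue comparison and 18 to 19 in the TCDD one. With the replicate block the counts were 0 for TCDD in pituitary, 0 in hypothalamus, 0 for the difference of effects, and 17 between tissues in controls, where Dlat, Aco1, Suclg1 and Sdha were lost. No paired analysis was possible for the tissues in TCDD arrays because these groups share only replicate number 1.

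Median scaling moved the median of all probes to −0.09 in the hypothalamus and 0.11 for the difference of effects, with medians of −0.17 and 0.22 for these genes. Under it the sign turned for Pdk1 in pituitary (0.0106), in hypothalamus (−0.0491) and in the difference (0.0597), for Pdk3 in hypothalamus (−0.0441), and for Lipt2 between tissues with TCDD (0.13). For Dlat and Dlst, which passed, the deposited processed values turned the control tissue estimate of Dlat to 0.05 and the TCDD one of Dlst to 0.04. Array weights turned Pdk4 in pituitary (0.0754) and in the difference (0.00713) and Lipt2 between tissues with TCDD (0.00459), and the replicate block turned Pdk4 in pituitary (0.25) and in the difference (0.14). The deposited processed values turned Lipt2 between tissues with TCDD (0.20). None of the estimates of Pdk1, Pdk3, Pdk4 and Lipt2 listed here passed in the reported setting, and the hypothalamus signal of Pdk4 behind its difference was not above background. Leaving out an array turned signs within these ranges: Pdk1 in pituitary −0.0761 to 0.0219 and in hypothalamus −0.00948 to 0.211, Pdk2 in hypothalamus −0.0650 to 0.0952, Pdk4 in pituitary −0.20 to 0.12 and in the difference −0.294 to 0.0240, and Lipt2 between tissues with TCDD −0.179 to 0.0640.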

Other observations

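Other energy pathways were read the same way. Of 14 tested glycolysis probes, 32 of oxidative phosphorylation, 12 of mitochondrial regulators, 7 of hypoxia targets and 7 of fasting and PPAR targets, limma called 0 for TCDD in either tissue. At an unadjusted p below 0.05 they had 4, 2, 0, 0 and 1 in the pituitary and 2, 7, 1, 1 and 1 in the hypothalamus, against 11.5% and 10.9% of all probes. Singled out after the values were seen, as the smallest p in each tissue, were Aldoc, an aldolase, in the pituitary (0.56 ± 0.17, SE, adjusted p = 0.203) and Adm, adrenomedullin, in the hypothalamus (0.85 ± 0.18, adjusted p = 0.244).

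Between tissues, 33.7% of all probes were higher in pituitary and 35.9% lower in controls, and 33.4% and 36.8% with TCDD. Against this, glycolysis had 3 probes higher and 8 lower in pituitary in controls, and 4 and 7 with TCDD. Pkm, pyruvate kinase, was lower in pituitary, at −3.08 ± 0.25 in controls and −2.92 ± 0.25 with TCDD (SE, limma adjusted p = 2.99e-07 and 5.07e-07), and Eno1, an enolase, at −1.49 ± 0.13 and −1.62 ± 0.13. The fasting and PPAR list ran the other way, with 6 of 7 probes higher in both treatments. Of this list, Foxo3 and Pparg were detected on no hypothalamus array, and Angptl4 on no pituitary array. Those of them that were tested passed the detection filter only through 1 tissue and so had to differ. Ucp2, a mitochondrial carrier, was higher by 3.24 ± 0.11 in controls and 2.82 ± 0.11 with TCDD (adjusted p = 3.10e-10 and 6.90e-10), Cpt1a, which admits fatty acids to mitochondria, by 1.57 ± 0.15 and 2.17 ± 0.15, and Acadm, an acyl-CoA dehydrogenase, by 1.52 ± 0.09 and 1.72 ± 0.09. Oxidative phosphorylation had 5 higher and 9 lower of 32 in controls and 4 and 11 with TCDD.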
